A study of Rattus norvegicus with 12 samples.

Results

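Glucocorticoid reaches the heart in an active and an inert form. The subject here is the RNA of 9 genes of its activation, reception and response: Hsd11b1, Hsd11b2, Nr3c1, Glul, Sgk1, Tsc22d3, Cebpd, Cdkn1a and Tat. The data hold no steroid level or receptor activity. Every probe set whose annotation names 1 gene, and that gene a member, was taken, which gave 16 of the 8740 probe sets of the array and 8 of the 9 genes, among 4736 genes that a probe set names alone. Tsc22d3, a leucine zipper protein that glucocorticoid induces, had no probe set under its symbol and is not analysed here. The data are left ventricle RNA of rats, 6 samples after 7 weeks of treadmill running (exercised 1, 4, 5, 7, 8 and 9) and 6 from sedentary animals (sedentary 13, 16, 17, 21, 23 and 24), with 1 array each. The study's title places the comparison in cardiac hypertrophy brought about by exercise. The sources used here do not give strain, sex, age, running schedule or the hour of tissue collection, and they name no allele or drug for either group. Whether the numbers stand for 12 different rats is not said in the labels, so each p-value is set against a spread between samples that may be technical in part.

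Corticosterone, the main glucocorticoid of the rat, is secreted in a daily rhythm and in response to physical stress. Inside cells the enzyme Hsd11b1 regenerates it from its inert keto form, and Hsd11b2 does the opposite in aldosterone target tissues such as the kidney tubule. The active steroid binds the receptor Nr3c1, which then moves to the nucleus and induces or represses genes. In striated muscle such targets include glutamine synthetase (Glul) and regulators of growth and protein breakdown, and in the liver tyrosine aminotransferase (Tat) is a standard readout.

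The values are array intensities as deposited, on a linear scale in arbitrary units, and differences are exercised minus sedentary of log2(intensity + 363), a scale on which dim probe sets show less than their full change. Group values are mean ± SD with n = 6. Of the 16 probe sets, 14 (of 6 genes) passed the filter on dim probe sets and were tested among 6555. Those of Hsd11b2 and Tat lay below it. The arrays were on a common scale, with medians between 840 and 875. Sedentary 17 stood apart, with a median correlation with the other arrays of 0.964 against 0.986 to 0.990 on the other 11, and it held the highest value of 3 and the lowest of 5 of the 14 probe sets. Exercised 4 and 5 were low in the haemoglobin transcript Hbb (15784 and 8786 against 28362 to 37794 on the other 10). Of the 11 ventricular cardiomyocyte markers, 10 were on the array, led by Actc1, Myl2 and Myh7 with means of 53710, 51908 and 50634. No detection calls were used, and probe sets of the kidney tubule genes Aqp2, Slc12a3 and Umod had means of 2405, 1263 and 1653 in these ventricles, so an intensity in that range does not by itself show that a transcript was present.

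Among the members, the values of Hsd11b1 and of all 4 probe sets of Glul were higher in exercised ventricles, while the 95% interval of each Nr3c1, Sgk1, Cebpd and Cdkn1a probe set spanned 0. At an adjusted p of 0.05 by limma (two-sided, Benjamini-Hochberg over all 6555), 0 of the 14 passed, against 0.32% of the 6555. By sign alone 9 of the 14 were higher, against 51.4%. At an unadjusted p under 0.05, 5 of the 14 were higher and 0 lower, against 9.26% and 6.91% of all tested probe sets. The 5 were the probe set of Hsd11b1 and the 4 of Glul, and the latter measure 1 transcript, so they stand for 2 of 6 genes. Without sedentary 17 the count was 4, and without exercised 4 and 5 together it was also 4. The exercised and sedentary values overlapped on each of the 14, while 2.07% of the 6555 had groups that did not overlap and 1.5% had every exercised value above. The median log2 difference of the 14 was 0.029, and that of all tested probe sets 0.0027. The members were chosen with earlier results of these data known, so their shares are not an independent comparison with the array.

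**Figure D1:**
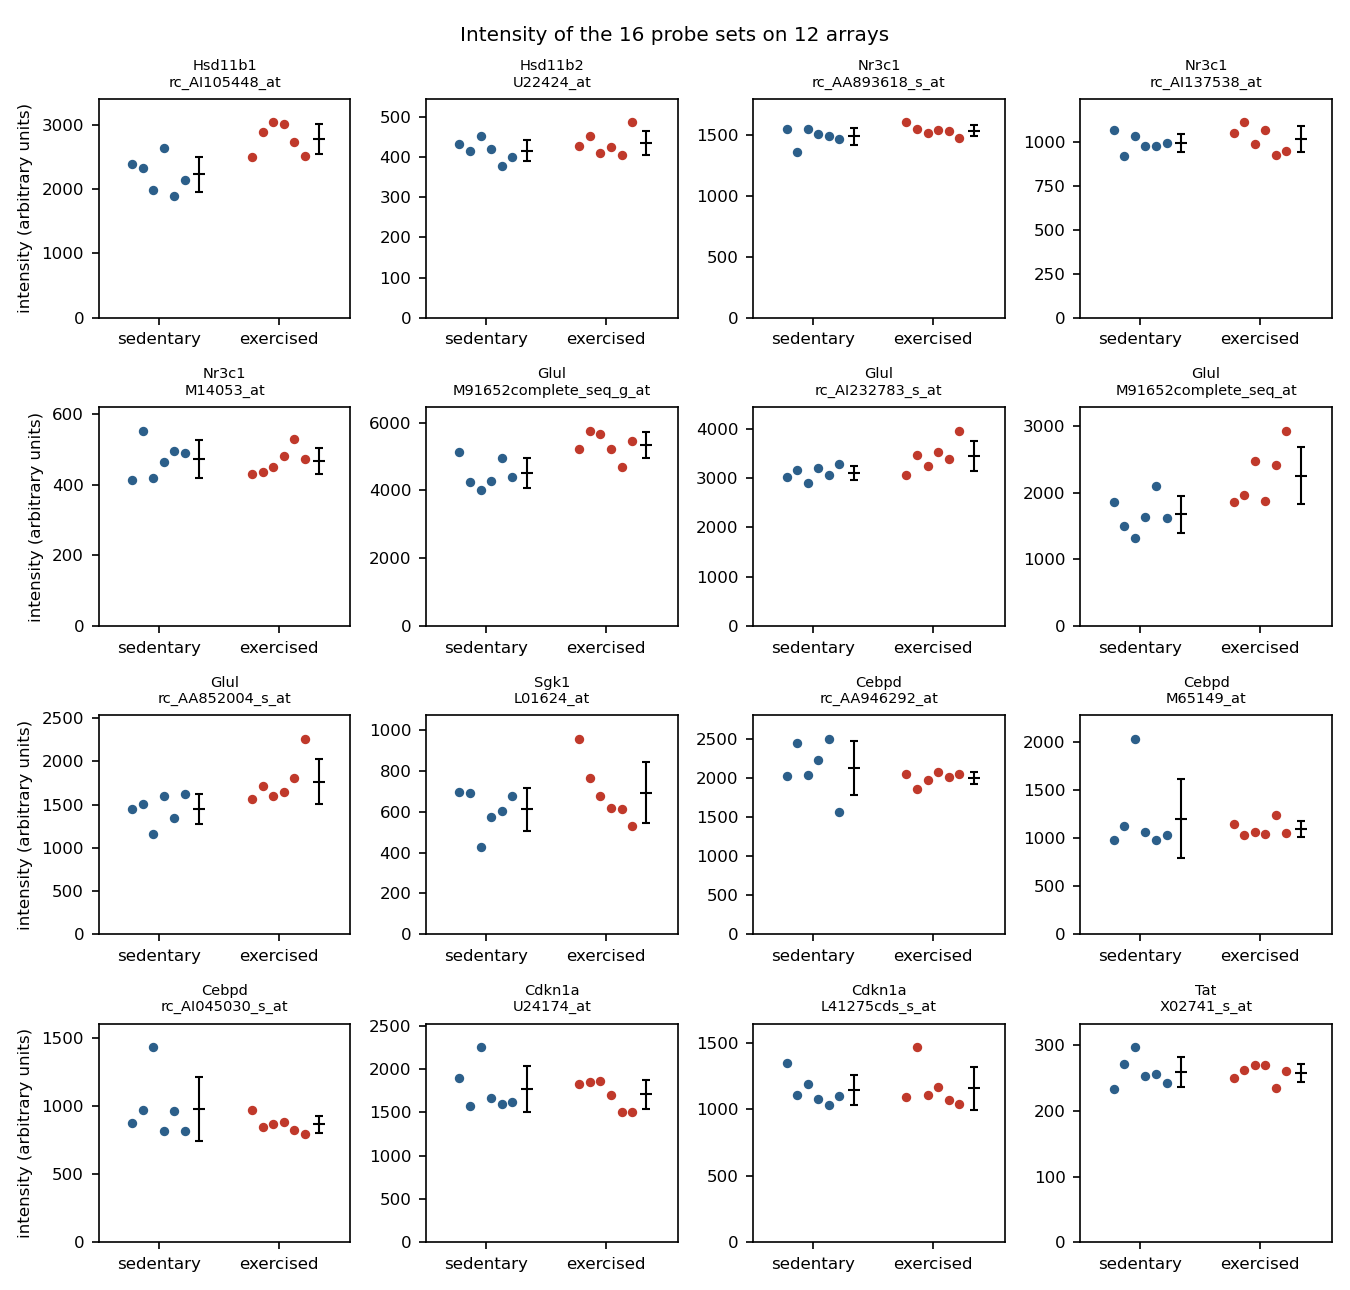
Intensity (arbitrary units, linear axis from 0) of each of the 16 probe sets in the 6 sedentary (blue) and 6 exercised (red) samples, each group ordered from left to right by label number, with the mean and SD beside it in black. The Hsd11b1 and Glul points lie higher on the exercised side with overlap, and single points stand apart for Cebpd in sedentary 17 (2028 and 1437).

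Hsd11b1, the enzyme that regenerates active glucocorticoid, was measured by probe set rc_AI105448_at. Its mean over the 12 arrays was 2503, close to the 2405 of the kidney tubule gene Aqp2. Intensity alone therefore does not show that the Hsd11b1 transcript was present. Its intensity ran from 2501 to 3035 with a median of 2808 in exercised samples, and from 1892 to 2637 with a median of 2231 in sedentary ones. Exercised 4, 5, 7 and 8 lay above every sedentary sample, and exercised 1 and 9 lay below sedentary 21 alone, so 5 of 6 sedentary values were under the lowest exercised one. The mean went from 2227 ± 277 to 2779 ± 236, or 24.8% higher, and the log2 difference was 0.28 ± 0.074 (SE, 95% interval 0.12 to 0.44). The limma adjusted p was 0.0922, and the exact permutation test, with 924 arrangements of the group labels, gave p = 0.00866 (two-sided), or 0.144 after adjustment over all tested probe sets. By its p the probe set ranked 127 of 6555. With 1 array left out the difference lay between 0.24 and 0.33, and it was 0.25 without sedentary 17.

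Hsd11b1 is known from fibroblasts and adipocytes as well as from muscle, and markers of these cells were read beside it. Of 11 fibroblast markers, 10 were on the array and 9 tested. All 9 were higher by sign, against 51.4% of all tested probe sets, at a median of 0.28 on the log2 scale, although none passed. The summed intensity of the 10 on the array ran from 52670 to 81164 in exercised and from 41487 to 55952 in sedentary samples, so the groups overlapped. Of 8 adipocyte markers, 7 were tested, 2 were higher by sign, and the sums ran from 45549 to 53391 and from 45048 to 47930. Most of that intensity came from Lpl and Fabp4 (means of 24444 and 13384), whose log2 differences were -0.00063 and 0.26. Which cells gave their signal was not tested. A rise by sign was not particular to fibroblast markers. Of the ventricular cardiomyocyte markers, 9 of 10 tested were higher by sign (median 0.041), and of the endothelial ones 1 of 4. Of 7 smooth muscle markers, 5 were tested and all 5 were higher by sign (median 0.17), with none past the threshold. The sums over the 6 on the array ran from 20239 to 25493 in exercised and from 18430 to 21001 in sedentary samples. Most of that intensity came from Des, with a mean of 15147 against 2235 for the next brightest, Acta2. Which cells gave the Des signal was not tested. In whole ventricle, more cells of a type and more RNA per cell cannot be told apart, and the part of these cells in the Hsd11b1 difference was not tested.

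Hsd11b2, which inactivates the steroid, had an intensity of 434 ± 30.2 in exercised and 416 ± 26.3 in sedentary samples on probe set U22424_at. The values ran from 406 to 486 and from 376 to 452, and the groups overlapped. With a mean of 425 it fell just under the filter at 434, and without a filter its log2 difference was 0.033 ± 0.033 (SE, 95% interval -0.037 to 0.10, limma adjusted p = 0.621). Its probe set was dimmer than that of Hsd11b1, and the pair is not set against each other here.

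The receptor Nr3c1 had 3 probe sets. On rc_AA893618_s_at it went from 1487 ± 69.8 to 1535 ± 43.1, a log2 difference of 0.037 ± 0.038 (SE, 95% interval -0.043 to 0.12, limma adjusted p = 0.633). On rc_AI137538_at it went from 993 ± 51.3 to 1015 ± 72.4 (0.022 ± 0.042, adjusted p = 0.810), and on the dim M14053_at from 473 ± 52.4 to 467 ± 37.3 (-0.0089 ± 0.045, adjusted p = 0.936). On each, the values of the groups overlapped, for example 1470 to 1602 in exercised against 1362 to 1550 in sedentary samples on the first. On this log2(intensity + 363) scale the 95% intervals of all 3 lay between -0.11 and 0.12. With a floor in place of the added 363, the SE of M14053_at was 0.079, so the bound for this dim probe set depends on the scale.

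Within the groups the receptor's probe sets had relations of both signs. With group means removed, M14053_at and rc_AI137538_at had a negative relation over the 12 arrays (Pearson r = -0.786, permutation p = 0.00217, adjusted 0.0369; Spearman rho = -0.682, p = 0.0132, adjusted 0.144). The r was -0.735 without exercised 4 and 8, the arrays farthest from the median of rc_AI137538_at. Against rc_AA893618_s_at the r of M14053_at was -0.782 (permutation p = 0.00617, adjusted 0.0699) and its rho -0.764 (p = 0.0108, adjusted 0.144), with an r of -0.735 without exercised 9 and sedentary 16. For this pair r was -0.398 within exercised samples and -0.948 within sedentary ones. The brighter pair had an r of 0.675 (permutation p = 0.0106, adjusted 0.0902) and a rho of 0.649 (p = 0.0280, adjusted 0.182), and r was 0.496 without exercised 9 and sedentary 16. These are 3 of 34 relations computed over the arrays, and which probe set follows the receptor transcript was not tested.

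Glul, glutamine synthetase, joins ammonia to glutamate and is a glucocorticoid target in muscle. It had 4 probe sets, and each was higher in exercised samples by sign. On the brightest, M91652complete_seq_g_at, exercised values ran from 4702 to 5762 with a median of 5341 and sedentary values from 4012 to 5121 with a median of 4340. All exercised samples but number 8 lay above every sedentary one, and sedentary 13 and 23 were the only ones inside the exercised range. The mean went from 4504 ± 438 to 5339 ± 382, or 18.5% higher, a log2 difference of 0.23 ± 0.067 (SE, 95% interval 0.086 to 0.37, limma adjusted p = 0.118, exact permutation p = 0.0108 and 0.156 adjusted).

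On M91652complete_seq_at, from the same source sequence, Glul went from 1676 ± 275 to 2257 ± 426. Exercised values ran from 1867 to 2935 and sedentary ones from 1328 to 2109, and 5 of 6 sedentary values lay under the lowest exercised one. The log2 difference was the largest among the members at 0.36 ± 0.11 (SE, 95% interval 0.13 to 0.59, limma adjusted p = 0.130). On rc_AA852004_s_at the mean went from 1450 ± 174 to 1767 ± 259 (0.23 ± 0.081, adjusted p = 0.179), with exercised 9 at 2262 and the other exercised samples at 1560 to 1812. On rc_AI232783_s_at it went from 3110 ± 141 to 3443 ± 304 (0.13 ± 0.057, adjusted p = 0.276), and exercised 1 and 5, at 3070 and 3240, fell within the sedentary range of 2900 to 3290. Sedentary 17 had the lowest Glul value on all 4 probe sets, and without it the differences were 0.20, 0.31, 0.18 and 0.11, in the order given here. Exercised 9 was the highest on 3 of the 4, and without it they were 0.22, 0.29, 0.17 and 0.092.

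Within the groups the Glul probe sets formed no single pattern. The pair rc_AI232783_s_at and rc_AA852004_s_at went together over the 12 arrays with group means removed (Pearson r = 0.885, permutation p = 0.00029, adjusted 0.00986; Spearman rho = 0.861, p = 0.00085, adjusted 0.0289), and r was 0.808 without exercised 1 and 9. The brightest probe set had an r of 0.467 with M91652complete_seq_at (permutation p = 0.141, adjusted 0.436) and a rho of 0.518 (permutation p = 0.104, adjusted 0.293), and 0.237 was left of that r without sedentary 13 and 23. For this pair r was 0.0021 within exercised samples and 0.915 within sedentary ones. A probe set whose name ends in s_at can share signal with similar transcripts, and probe sets of 1 gene are repeated readings of the same samples rather than replicates.

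Since Glul was the member with several probe sets all higher by sign, the bases before its annotated starts are shown. RefSeq (GRCr8) gives 2 starts, with 250-base windows before them at chr13:68519250-68519499 and chr13:68575816-68576065, both on the plus strand. Each is printed from 5′ to 3′ in lower case, with matches to the core of the glucocorticoid response element, ACANNNTGT, in capitals.
Glul, first start: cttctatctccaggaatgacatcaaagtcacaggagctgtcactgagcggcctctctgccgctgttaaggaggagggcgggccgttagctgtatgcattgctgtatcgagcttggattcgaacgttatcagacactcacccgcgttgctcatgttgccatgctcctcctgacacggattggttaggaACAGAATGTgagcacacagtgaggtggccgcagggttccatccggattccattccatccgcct
Glul, second start: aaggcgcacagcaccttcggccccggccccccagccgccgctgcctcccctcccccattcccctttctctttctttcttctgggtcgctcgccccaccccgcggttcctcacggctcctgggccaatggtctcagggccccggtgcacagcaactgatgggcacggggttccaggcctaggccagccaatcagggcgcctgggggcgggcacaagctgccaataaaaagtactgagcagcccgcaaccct
The core reads the same on both strands, and it is the middle of the full palindrome, which is AGAACA and TGTTCT with 3 bases between them. The first window held 1 match, ACAGAATGT, which began 63 bases before the start, and the second held none. Of 33469 such windows in the RefSeq table, 5.81% held the core, 0.012% (4 windows) the full palindrome and 17.5% the hexamer TGTTCT on either strand. Windows were available for 6 of the 9 members, 12 in all, and the only other core match was in 1 of the 3 windows of Tsc22d3, 183 bases before its start. None of the 12 held the hexamer or the palindrome. A match describes the letters, and no binding was measured.

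Sgk1, a kinase that glucocorticoid induces and that regulates ion transport and cell survival, was measured by L01624_at. Exercised values ran from 532 to 958 with a median of 648 and sedentary values from 426 to 699 with a median of 640. The highest value was that of exercised 1 and the lowest that of sedentary 17, and apart from these the groups overlapped. The log2 difference was 0.11 ± 0.091 (SE, 95% interval -0.082 to 0.31, limma adjusted p = 0.546, exact permutation p = 0.318). It was 0.047 without exercised 1 and 0.054 without sedentary 17.

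Cebpd, a transcription factor of acute responses, was lower by sign on its 3 probe sets, with log2 differences of -0.064 ± 0.081 for rc_AA946292_at, -0.070 ± 0.12 for M65149_at and -0.11 ± 0.086 for rc_AI045030_s_at (limma adjusted p of 0.704, 0.774 and 0.520). On M65149_at sedentary 17 read 2028, while the other 5 of its group read 978 to 1125 and the exercised samples 1028 to 1235. On rc_AI045030_s_at it had 1437, against 816 to 977 and 800 to 974. Without that array the differences of these 2 probe sets were 0.059 and -0.026, so the sign on M65149_at rested on 1 array. On rc_AA946292_at sedentary 17 was at 2033, within the others, and the sedentary samples spread from 1557 to 2499 while the exercised ones kept between 1857 and 2073. Its difference was -0.14 without sedentary 24, -0.027 without sedentary 16 and -0.022 without sedentary 23.

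Cdkn1a, an inhibitor of cyclin-dependent kinases that glucocorticoid can induce, gave -0.035 ± 0.078 on U24174_at (from 1766 ± 265 to 1707 ± 167, limma adjusted p = 0.838) and 0.011 ± 0.067 on L41275cds_s_at (from 1143 ± 113 to 1158 ± 159, adjusted p = 0.946). Sedentary 17 was the highest on the first at 2253 and exercised 4 on the second at 1469, and the sign of each turned without that array, to 0.026 and -0.044. Tat had the dimmest probe set of the members, X02741_s_at, at 258 ± 13.6 in exercised and 259 ± 22.7 in sedentary samples, with values from 234 to 270 and from 233 to 297. Its log2 difference without a filter was -0.0027 ± 0.028 (SE, 95% interval -0.062 to 0.056). Of the 6 hepatocyte markers, of which Tat is 1, all were on the array and 4 passed the filter.

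**Figure D2:**
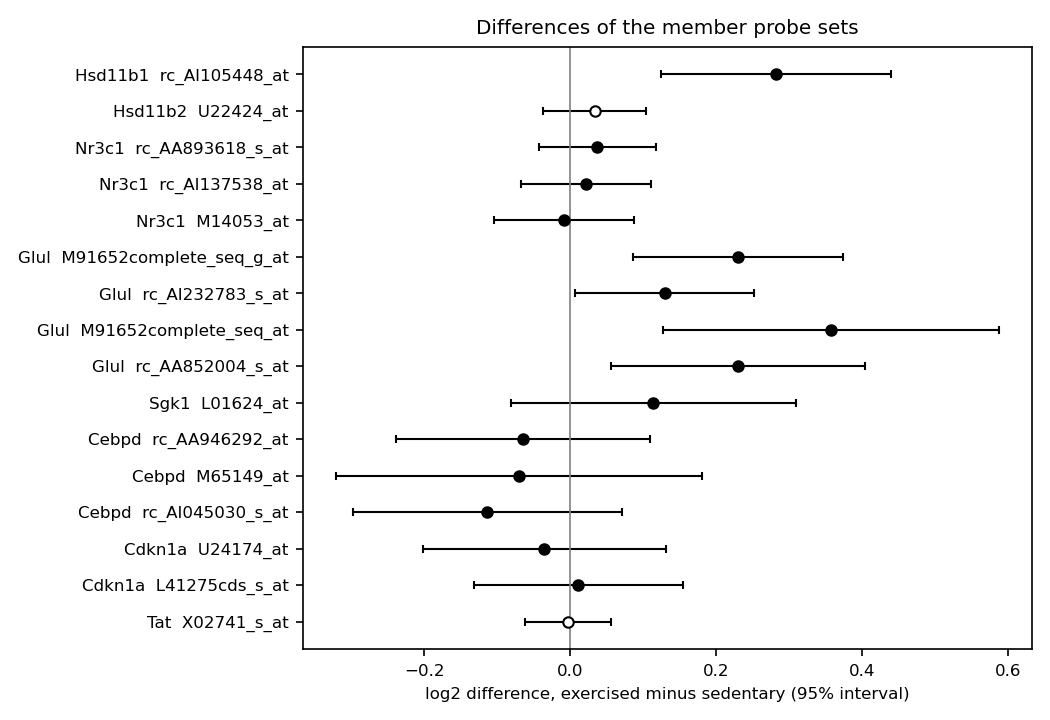
Log2 difference, exercised minus sedentary, of each member probe set with its 95% interval from limma (horizontal bars). Filled points were tested among 6555 probe sets, and open points (Hsd11b2 and Tat) come from the fit without a filter. The intervals of Hsd11b1 (0.12 to 0.44) and of the 4 Glul probe sets lie above 0 before adjustment, and all others span 0.

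**Figure D3:**
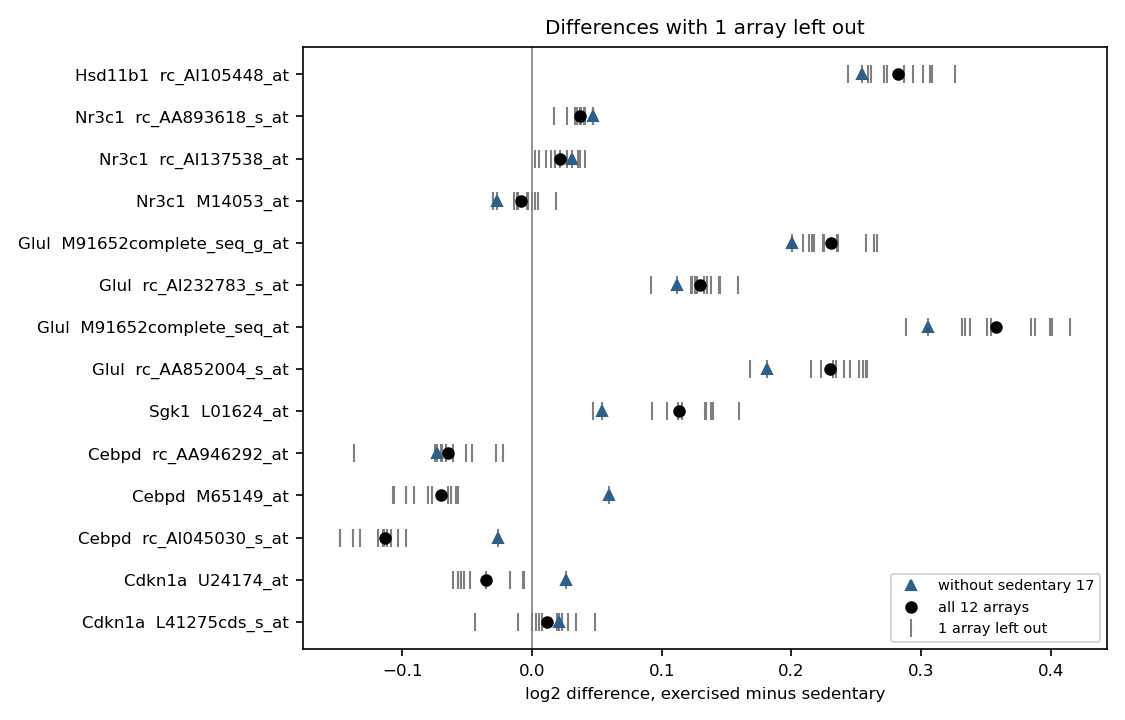
Log2 difference of the 14 tested probe sets with all 12 arrays (black points), with each array left out in turn (grey ticks) and without sedentary 17 (blue triangles). Hsd11b1 and Glul stay above 0 in each fit, and M65149_at of Cebpd changes sign without sedentary 17 (0.059).

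Other genes of glucocorticoid supply, reception and response were read from a list of 4 kinds. In all, 50 genes were tested on their brightest probe set, of which 24 had a positive and 26 a negative difference, the median being -0.0023. Of these, 1 passed the adjusted threshold, Sult1a1, where 0.32% of the 6555 probe sets did. At an unadjusted p under 0.05, 9 of the 50 were higher and 3 lower, against 9.26% and 6.91% of the 6555. The list was chosen with earlier results of these data known, so these shares are not an independent comparison.

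Of 11 genes of steroid metabolism, transport and efflux, 7 were tested and none passed, with 2 higher and 5 lower by sign (median -0.082). The efflux pumps that expel corticosteroids and other compounds were both lower by sign, Abcb1a at -0.14 ± 0.047 (from 1246 ± 78.5 to 1097 ± 86.1, limma adjusted p = 0.164) and Abcb1b at -0.10 ± 0.057 (adjusted p = 0.396). For Abcb1b sedentary 17 read 665 and the other 5 of its group 439 to 499, and leaving it out gave -0.047. The membrane protein Pgrmc1 was higher by sign at 0.14 ± 0.055 (adjusted p = 0.238), and 0.085 without sedentary 17.

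Among 18 chaperones, immunophilins and coactivators that hold or assist the receptor, 9 were tested and none passed, with 6 higher and 3 lower by sign (median 0.098). The immunophilin Ppid, which binds the receptor with Hsp90, went from 1670 ± 182 to 1989 ± 202 (0.21 ± 0.069, limma adjusted p = 0.158). The Hsp70 partner St13 gave 0.23 ± 0.088 (adjusted p = 0.217, and 0.14 on its other probe set). The coactivator Ncoa1 went from 1104 ± 315 to 851 ± 64.1 (-0.25 ± 0.099, adjusted p = 0.234), with sedentary 17 at 1746, the rest of its group at 953 to 1012, and -0.14 without it. The mineralocorticoid receptor Nr3c2, which binds corticosterone too, gave 0.12 ± 0.061 (adjusted p = 0.333) and was named after its value was seen.

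Of 44 further genes that glucocorticoid is known to induce, 23 were tested, 11 higher and 12 lower by sign (median -0.00063). Sult1a1, a sulfotransferase of phenols that dexamethasone induces in rat liver, rose from 1358 ± 155 to 2015 ± 298, a log2 difference of 0.46 ± 0.081 (limma adjusted p = 0.0302). All 6 exercised values lay above the 6 sedentary ones, and its other probe set gave 0.43 ± 0.094 (adjusted p = 0.0655). The call was lost without exercised 5 or 7 or sedentary 16, 21, 23 or 24, with adjusted p up to 0.0772 when 1 array was left out. Annexin Anxa1, a mediator of the anti-inflammatory action of glucocorticoid, gave 0.30 ± 0.081 and 0.37 ± 0.083 on its pair of probe sets (adjusted p of 0.101 and 0.0675), and the matrix protein Mgp, which is also on the fibroblast list, 0.41 ± 0.11 (adjusted p = 0.101).

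Of 16 inflammatory genes that glucocorticoid is known to repress, 11 were tested and none passed, with 5 higher and 6 lower by sign (median -0.049). The secreted phospholipase Pla2g2a went from 1326 ± 222 to 2088 ± 579 (0.51 ± 0.14, limma adjusted p = 0.107), the cyclooxygenase Ptgs2 from 1519 ± 163 to 1337 ± 147 (-0.15 ± 0.069, adjusted p = 0.311) and the gelatinase Mmp9 from 680 ± 22.5 to 716 ± 39.1 (0.048 ± 0.033, adjusted p = 0.472). The macrophage list, whose cells express several of these genes, had 3 of 8 tested markers higher by sign and 1 called, Lyz2, with sums of 20749 to 26318 in exercised and 19609 to 21549 in sedentary samples. Its part in these values was not tested.

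**Figure D4:**
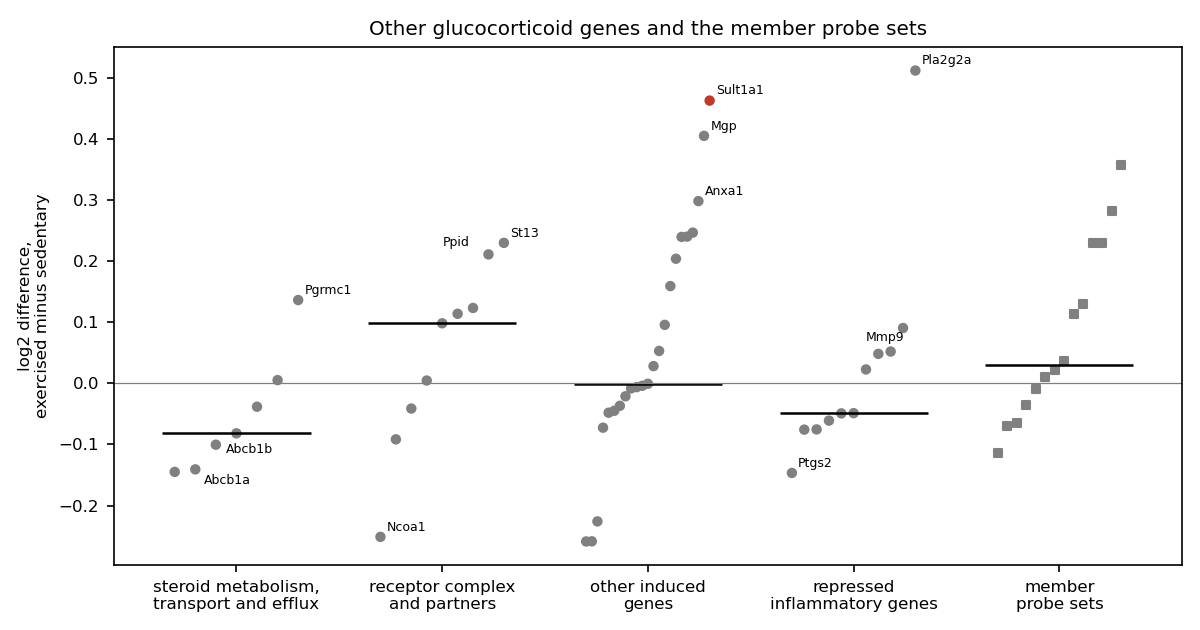
Log2 difference, exercised minus sedentary, of the 50 other glucocorticoid genes by kind (circles, 1 probe set a gene) and of the 14 member probe sets (squares), with the median of each column as a black line. The red point is Sult1a1, the only one of these past an adjusted p of 0.05, and the named points are the 3 of smallest p in each kind.

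Relations between the members within the groups were read next. Over the 15 pairs of the 6 tested genes, on their brightest probe sets and with group means removed, no correlation passed adjustment over the 34 relations computed. Hsd11b1 and Glul, the genes with the largest differences, had a Pearson r of 0.066 (permutation p = 0.852) and a Spearman rho of 0.035 (permutation p = 0.927), and r was 0.499 without sedentary 21 and 23. The pair of members with the smallest p was Nr3c1 and Cdkn1a (r = 0.656, permutation p = 0.0466, adjusted 0.264; rho = 0.604, p = 0.0485, adjusted 0.206), with an r of 0.606 without exercised 9 and sedentary 16.

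The genes most like Hsd11b1 over the 12 arrays with group means removed were the calcium-binding Golgi protein Nucb1 (r = 0.882), Litaf (0.845) and the calcitonin receptor-like receptor Calcrl (0.832). Their own log2 differences were 0.16, 0.20 and 0.081, and none passed (limma adjusted p of 0.266, 0.101 and 0.370). For Glul the nearest genes changed with the probe set: Mtnr1a, Myog and Mark3 (0.922, 0.915 and 0.914) for the brightest, Irf8, Hspa4 and Psap (0.913, 0.887 and 0.845) for M91652complete_seq_at, and Fam210a, Skic8 and Cpt2 (0.928, 0.924 and 0.919) for rc_AA852004_s_at. No gene was among the nearest 3 of more than 1 of these Glul probe sets. These neighbours are given as a description, over 12 arrays that each gene shares. Each was picked for the highest r among all tested probe sets that name 1 gene. How high an r such a pick gives among unrelated genes was not tested.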

How the data were processed

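The authors deposited 1 intensity per probe set and array, on a linear scale. How the arrays were read, background-corrected and scaled, and their detection calls, were not given in the sources used here. The deposited scaling was kept, since trimmed array means differed by a factor of at most 1.05. An unknown global scaling would hide a change in total RNA, so a difference is relative to all other probe sets. No pair of arrays held identical values.

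Values were analysed as log2(intensity + 363), the pseudocount being the 20th percentile of all values. Probe sets with a mean above the 25th percentile of the means (434) were kept, 6555 of 8740. The fit was limma 3.58.1 in R 4.3.3 (lmFit, eBayes with a mean-variance trend), with the threshold at an adjusted p of 0.05. Correlations used 100000 permutations within groups. Where an r is also given without certain arrays, those were the arrays farthest from the median of 1 side of the relation, with group means removed. Arrays extreme only on the other side stayed in. The code was tested on simulated data. Of the probe sets, 7006 named 1 gene, 308 several and 1426 none. The 16 member probe sets matched RefSeq by Entrez ID.

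The text names every probe set of a member, and of the other lists the genes past the threshold and the 3 of smallest p per kind. Members and lists were chosen with earlier results of these data known. No pairing or batch is in the labels. Alternatives were other pseudocounts, filters, scalings, variance models, an exact test and arrays left out.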

Additional observations from a re-analysis of the deposited data

Results flagged for a closer look

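In 7 of 56 groups of 6 values (the member probe sets and the named genes of the other lists, in each group), 1 array lay far from the others by Dixon's gap test, where chance flags about 1 in 20 groups, or 2.8 of 56. In 5 of the 7 that array was sedentary 17. It was high for Cebpd on M65149_at (2028) and rc_AI045030_s_at (1437), for the efflux pump Abcb1b (665) and for the coactivator Ncoa1 (1746), and low for Pgrmc1 (371, against 510 to 591 on the other sedentary arrays). Exercised 9 was high for Glul on rc_AA852004_s_at (2262), and exercised 4 for Cdkn1a on L41275cds_s_at (1469, against 1038 to 1169 on the other exercised arrays).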

How the results depend on the processing

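No member probe set passed the adjusted threshold under any alternative run, and Hsd11b1 and the 4 Glul probe sets kept their direction in each. The adjusted p of Hsd11b1 ran from 0.0596 with array weights to 0.277 without exercised 4 and 5. Between 4 and 5 member probe sets were higher at an unadjusted p under 0.05. Of all probe sets 21 passed, and 32 did without a filter, 50 with a filter at the median, 42 without a trend, 160 with array weights, 0 by the exact permutation test (smallest possible p 0.00216, with 1154 at an unadjusted p under 0.05 and, by limma, 607 higher and 453 lower), 4 without exercised 4 and 5, 5 without sedentary 16 and 17, and 3 to 37 with 1 array left out. The smallest possible p of the exact test passes adjustment over 6555 probe sets only if many probe sets share it. The 0 by that test therefore says little about single probe sets. The 1 passing gene of the other lists, Sult1a1, was lost without either pair, leaving 0, and the count was 0 to 1 with 1 array left out. The sign turned for probe sets with small differences. With array weights M65149_at of Cebpd gave 0.024 and U24174_at of Cdkn1a 0.050. Without exercised 4 and 5, M14053_at of Nr3c1 gave 0.012 and L41275cds_s_at of Cdkn1a -0.048. Without sedentary 16 and 17, M14053_at gave 0.0020, M65149_at 0.083 and U24174_at 0.0088. With 1 array left out, M14053_at ran from -0.030 to 0.018, M65149_at from -0.11 to 0.059, U24174_at from -0.061 to 0.026 and L41275cds_s_at from -0.044 to 0.049. No paired analysis was possible because the groups share no label numbers. The number of arrays and the lack of detection calls limit what dim probe sets can show.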

Other observations

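Some genes of the list of induced genes are not covered by the naming rule and were picked with their values in view. Klf9, a transcription factor that glucocorticoid induces in many tissues, had a mean of 3058 ± 458 in sedentary and 3724 ± 733 in exercised samples (0.25 ± 0.12 on the log2 scale, limma adjusted p = 0.315), and its other probe set gave 0.26 ± 0.094 (adjusted p = 0.182). The sodium pump subunit Atp1b1 gave 0.24 ± 0.076 and 0.21 ± 0.073 on a pair of probe sets (adjusted p of 0.150 and 0.167) and 0.0025 ± 0.043 on the third. Angiotensinogen, Agt, gave -0.23 ± 0.080 (adjusted p = 0.182). Igfbp1 and Pnmt, of the same list, were also lower by sign, at -0.26 ± 0.12 and -0.26 ± 0.15 (adjusted p of 0.315 and 0.411). Over the whole list 11 genes were higher and 12 lower by sign.

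The clock genes Dbp, Nr1d2 and Bhlhe41 were set against the members after the data were seen, since corticosterone is rhythmic. With group means removed, none of the 6 relations passed adjustment over the 34 computed. The one of smallest p was that of Cdkn1a (Pearson r = -0.631, permutation p = 0.0212, adjusted 0.144; Spearman rho = -0.679, p = 0.0321, adjusted 0.182), with an r of -0.808 without exercised 5 and sedentary 17. That of Hsd11b1 had an r of -0.096 (permutation p = 0.754) and a rho of 0.045 (permutation p = 0.895), and r was -0.157 without sedentary 21 and 23.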
